A study of Homo sapiens with 12 samples.

Results

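The 39 genes described here encode the machinery that cuts, polyadenylates and terminates RNA polymerase II transcripts, together with the Integrator complex. They were taken by name, with earlier results of these data known, and all 39 were found among the 35238 genes of the deposited table. RNA was sequenced from HK-2 cells, an immortalized human proximal tubule line grown alone. Cells received 10 nM scrambled siRNA (SCR) or siRNA against POLR2A (siB), the gene of RPB1, the catalytic subunit of RNA polymerase II. They were given vehicle (DMSO) or the nephrotoxin aristolochic acid I (AAI) at 25 µM together with the siRNA, for 24 hours. AAI forms DNA adducts. The 4 groups were therefore SCR DMSO, SCR AAI, siB DMSO and siB AAI, with 3 libraries in each and 12 in all. Every library, the DMSO libraries included, carried an siRNA. All groups were a single immortalized line, and nothing in the sources used here says that replicates were separate cultures, so p-values measure only the spread between these libraries.

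The pre-mRNA 3′ end is made by a multi-part machine. CPSF recognizes the poly(A) signal and cuts, CF Im and CstF bind sequences up- and downstream of the cut, CF IIm contacts the C-terminal domain (CTD) of RPB1, and poly(A) polymerase adds the tail. The nuclease XRN2 then degrades the RNA still attached to the polymerase, which helps to end transcription. Integrator, a relative of CPSF, cuts small nuclear RNAs and also the short transcripts of polymerase paused near promoters.

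Depth ran from 15844015 reads in siB AAI replicate 1 to 42805294 reads in SCR DMSO replicate 2, and 0 reads allowed a level of at most 0.0701 to 0.189 reads per 1000000 (CPM) for counting error alone. POLR2A, the siRNA target, was at 284 ± 24.2 CPM in SCR DMSO (SD, n = 3) and 140 ± 2.61 CPM in siB DMSO, and rose with AAI to 707 ± 30.1 CPM in SCR cells and 232 ± 29.5 CPM in siB cells. Of 8 kidney epithelium markers, KRT8 was at 526 to 809 CPM and PAX8 at 199.9 to 418 CPM. In SCR AAI 1 of the 8 was under 1 CPM in every library, and 1 in siB DMSO. Their sum was 1759 to 2302 CPM in SCR DMSO and 1559 to 1840 CPM in SCR AAI. It was 1886 to 2049 CPM in siB DMSO and 1376 to 1447 CPM in siB AAI. Of 9 proximal tubule markers GGT1 was at 96.0 to 184 CPM, and SLC5A2 was at 3.13 to 4.42 CPM in SCR DMSO, 11.7 to 17.9 in SCR AAI, 3.98 to 7.08 in siB DMSO and 12.05 to 20.1 in siB AAI. The other 7, LRP2, CUBN and AQP1 among them, stayed at or under 4.17 CPM, a level reached by ANPEP, which was at 0.0902 to 0.128 CPM in siB DMSO and 2.25 to 4.17 CPM in siB AAI. The sum of the 9 was 118 to 153 CPM in SCR DMSO and 112 to 151 CPM in SCR AAI. That sum was 171 to 194 CPM in siB DMSO and 144 to 147 CPM in siB AAI. Summed over 6 fibroblast markers the level was 32.9 to 55.4 CPM in SCR DMSO, 23.8 to 27.9 CPM in SCR AAI, 34.4 to 37.7 CPM in siB DMSO and 13.8 to 25.6 CPM in siB AAI, mostly COL1A1. Over 3 leukocyte markers it was 0.584 to 1.85, 1.40 to 3.26, 0.446 to 1.35 and 4.29 to 6.63 CPM in the same 4 groups, with CD3E at 0 in all 12 libraries. Over 3 endothelial markers it was 0.981 to 1.66, 1.33 to 1.49, 1.06 to 1.40 and 3.64 to 5.55 CPM. Mitochondrial genes took 2.67% to 3.84% of reads in SCR DMSO, 2.86% to 3.496% in SCR AAI, 3.25% to 3.64% in siB DMSO and 4.12% to 5.01% in siB AAI. The kidney epithelium, proximal tubule and fibroblast sums were thus lower in siB AAI than in siB DMSO with no overlap. The leukocyte and endothelial sums and the mitochondrial share were higher in siB AAI than in siB DMSO with no overlap. The part of these values in the results was not tested. SCR DMSO replicate 2 stood apart. In it the mean log2 level of AT-rich genes minus that of GC-rich genes (transcripts at or under 42.0% and at or over 57.4% GC) was −1.12, against 0.64 and 0.25 in the other SCR DMSO libraries and −0.39 to 0.22 in the remaining 9. Calls of the 39 genes that change without it are given below.

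Every one of the 39 genes was expressed in all 12 libraries and passed the filter of each comparison. The lowest level was that of INTS2 in SCR DMSO replicate 2, at 4.95 CPM. Per kilobase of the MANE Select transcript, the phosphatase gene SSU72 was highest in SCR DMSO at 102 ± 24.8 CPM per kb (SD, n = 3), followed by the nuclear poly(A)-binding protein gene PABPN1 at 94.3 ± 31.1 and XRN2 at 57.3 ± 23.1. The lowest were PAPOLG at 2.22 ± 1.09, INTS2 at 2.66 ± 1.76 and PCF11 at 3.61 ± 2.22 CPM per kb. Subunits of a single complex thus lay far apart, with INTS1 at 48.0 ± 9.20 CPM per kb and INTS2 well under it.

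AAI was compared with DMSO in SCR cells to ask which factors change on injury, and in siB cells to ask the same where POLR2A is knocked down. In siB cells 14 of the 39 genes rose and 9 fell at an adjusted p under 0.05 (limma, Benjamini-Hochberg over all genes tested), where 30.4% of all genes tested rose and 21.8% fell. Of those that rose, 4 passed 2-fold, namely PCF11, INTS2, CSTF3 and RBBP6, where 13.9% of all genes did. In bulk RNA a share of cells that express a gene and the amount per cell cannot be told apart. Of the 9 that fell, 0 passed 2-fold, where 5.79% of all genes did. With all 4 groups sharing an estimate of the spread, 8 rose and 3 fell in siB cells, where 20.7% and 13.7% of all genes did. In SCR cells 0 genes rose and 0 fell in the same test, against 8.98% and 3.36% of all genes tested. There, 4 passed an unadjusted p under 0.05, all higher, and the lowest adjusted p was 0.064, for CSTF3. The replicate number was also used as a term in the model, a choice based on correlations between libraries and not on the labels. With that term, 5 rose in SCR cells (14.7% of all genes) and 0 fell (6.4%). Those 5 were PCF11, CSTF3, WDR33, RBBP6 and RPRD1B. Without SCR DMSO replicate 2, 3 rose in SCR cells, namely CSTF3, PCF11 and SYMPK (13.5% of all genes), and 0 fell (8.7%). Without SCR DMSO replicate 1, CSTF3 and PCF11 rose (8.81%) and 0 fell (2.4%). Over 18 alternatives, the adjusted p in SCR cells ran from 0.000174 to 0.251 for PCF11, from 0.000827 to 0.215 for CSTF3, from 0.00374 to 0.272 for WDR33, from 0.00657 to 0.615 for RBBP6 and from 0.0149 to 0.347 for RPRD1B.

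The median change of the 39 genes was 0.28 on the log2 scale in SCR cells, beside 0.18 over all genes tested, and 0.18 in siB cells beside 0.10. With median-ratio scaling of the libraries the medians over all genes moved to −0.01 and −0.02, and those of the 39 to 0.08 and 0.07. Of the 39, 30 had a positive change in SCR cells, and 23 with that scaling. In siB cells 25 were positive, and 22 with that scaling, where FIP1L1, INTS10 and XRN2 changed sign. Levels in the AAI and DMSO groups did not overlap for 9 genes that were higher and 2 that were lower in SCR cells, where 22.2% and 11.5% of all genes did so. In siB cells 16 were higher and 10 lower without overlap, where 34.2% and 26.6% of all genes were.

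**Figure D1:**
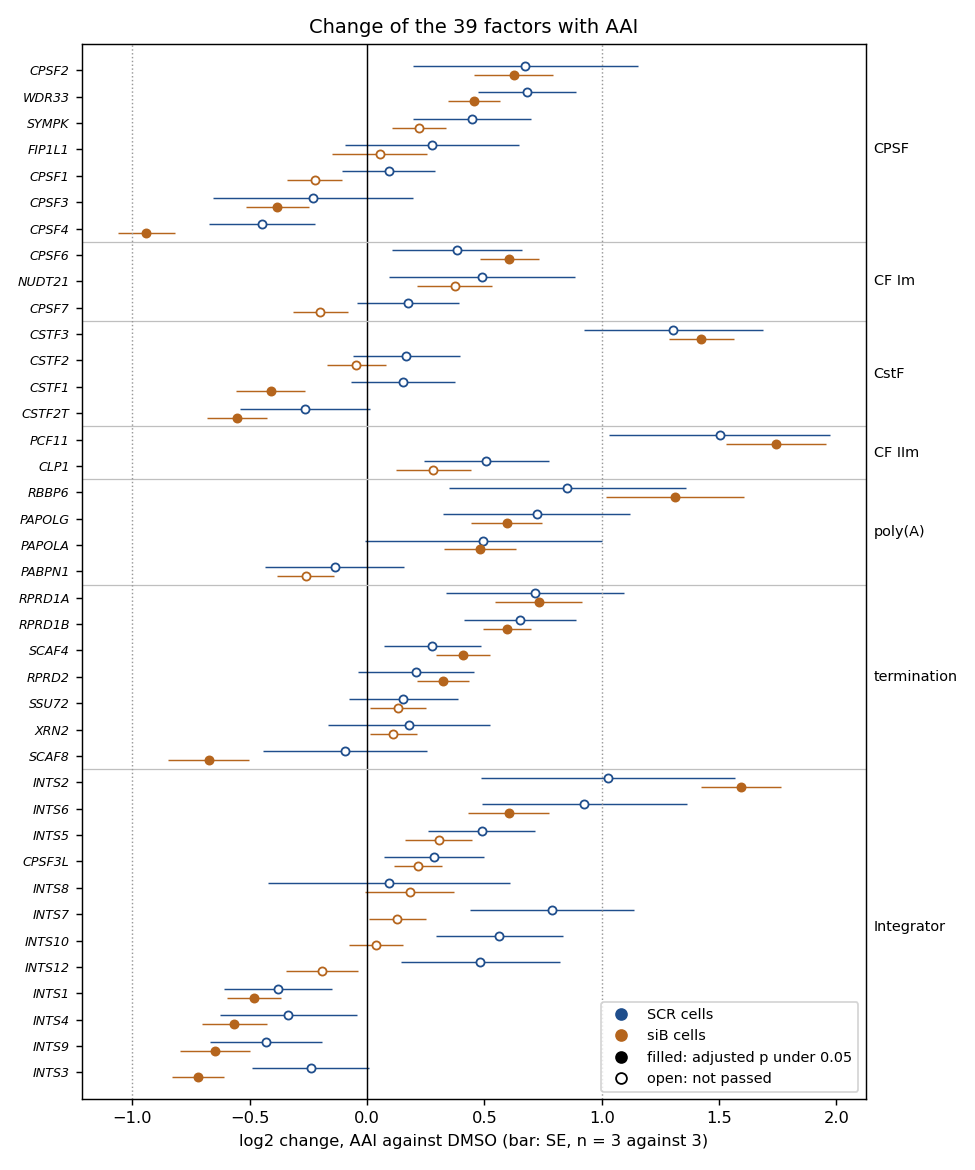
Change of each of the 39 genes with AAI on the log2 scale (x axis) in SCR cells (blue) and siB cells (brown), grouped by complex on the y axis. Points are limma estimates, bars are standard errors, filled points passed an adjusted p under 0.05 and dotted lines mark 2-fold. PCF11, INTS2, CSTF3 and RBBP6 lie beyond the right dotted line in siB cells, and no point for SCR cells is filled.

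Promoters are shown for the genes past 2-fold in siB cells and for the 2 with the largest falls, so that their start sites can be set side by side. Each runs from 250 bases before to 50 bases after the RefSeq start (GRCh38.p14), 5′ to 3′ on the strand of the gene, and capitals mark GC boxes (GGGCGG) and CCAAT boxes (CCAAT) on either strand.
PCF11 (chr11:83156881-83157180, plus strand): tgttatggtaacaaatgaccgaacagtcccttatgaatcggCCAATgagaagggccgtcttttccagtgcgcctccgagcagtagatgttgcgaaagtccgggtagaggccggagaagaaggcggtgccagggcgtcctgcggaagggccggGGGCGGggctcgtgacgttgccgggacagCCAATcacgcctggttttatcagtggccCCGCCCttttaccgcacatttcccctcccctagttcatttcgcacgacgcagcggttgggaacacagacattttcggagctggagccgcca
INTS2 (chr17:61927933-61928232, minus strand): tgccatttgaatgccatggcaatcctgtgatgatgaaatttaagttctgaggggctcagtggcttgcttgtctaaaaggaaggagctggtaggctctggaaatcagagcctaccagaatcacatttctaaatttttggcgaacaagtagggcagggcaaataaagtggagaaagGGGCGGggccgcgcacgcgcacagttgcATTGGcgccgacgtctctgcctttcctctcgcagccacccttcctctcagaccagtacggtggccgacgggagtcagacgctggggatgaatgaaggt
CSTF3 (chr11:33161431-33161730, minus strand): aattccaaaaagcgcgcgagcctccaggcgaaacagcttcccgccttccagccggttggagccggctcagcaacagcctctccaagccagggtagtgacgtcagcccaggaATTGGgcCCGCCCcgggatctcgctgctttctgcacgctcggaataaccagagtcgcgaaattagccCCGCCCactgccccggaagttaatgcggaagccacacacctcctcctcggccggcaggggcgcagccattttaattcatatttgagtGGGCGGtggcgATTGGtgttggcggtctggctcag
RBBP6 (chr16:24539316-24539615, plus strand): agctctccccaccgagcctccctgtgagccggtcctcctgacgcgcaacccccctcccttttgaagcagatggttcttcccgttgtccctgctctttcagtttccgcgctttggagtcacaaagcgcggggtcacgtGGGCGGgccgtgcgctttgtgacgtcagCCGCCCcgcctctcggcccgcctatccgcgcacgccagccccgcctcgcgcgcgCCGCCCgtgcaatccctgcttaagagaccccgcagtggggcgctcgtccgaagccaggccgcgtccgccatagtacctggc
CPSF4 (chr7:99438693-99438992, plus strand): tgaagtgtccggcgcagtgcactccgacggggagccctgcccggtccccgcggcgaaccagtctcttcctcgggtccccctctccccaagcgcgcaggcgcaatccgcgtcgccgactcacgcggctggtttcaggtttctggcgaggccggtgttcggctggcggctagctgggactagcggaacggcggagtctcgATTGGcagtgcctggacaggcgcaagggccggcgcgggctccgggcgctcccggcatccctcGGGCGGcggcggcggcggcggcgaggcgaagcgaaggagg
INTS3 (chr1:153727800-153728099, plus strand): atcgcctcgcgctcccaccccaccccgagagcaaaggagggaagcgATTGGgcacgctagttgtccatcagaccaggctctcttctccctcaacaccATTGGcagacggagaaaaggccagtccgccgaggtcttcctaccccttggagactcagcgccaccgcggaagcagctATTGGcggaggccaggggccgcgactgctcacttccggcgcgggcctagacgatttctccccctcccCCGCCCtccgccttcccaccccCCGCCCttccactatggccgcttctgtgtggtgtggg
PCF11, INTS2, CSTF3 and RBBP6 held 2, 1, 3 and 3 GC boxes, and CPSF4 and INTS3 held 1 and 2. A CCAAT box was present in all but RBBP6, so neither motif separated the genes that rose from those that fell. The windows of RBBP6 and CSTF3 lie wholly inside the gene spans given below, so starts further upstream in these genes were not searched. A RefSeq promoter was matched for 33 of the 39 genes. A GC box was in 23 of the 33 (69.7%), beside 45.0% of 35116 promoters of the same length, a CCAAT box in 15 (45.5%, beside 34.6%), and the ETS core CCGGAA in 16 (48.5%, beside 17.2%). The letters TATAAA were in 0 of the 33, beside 11.5% of promoters, and the AP-1 site TGANTCA in 0, beside 7.71%. Each motif was searched on both strands, and bases could count for more than 1 motif. The 35116 promoters were not limited to genes expressed here or to 1 per gene, as the 33 were. The shares are thus not of like sets, and a comparison with expressed genes was not made.

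The largest rise in siB cells was in PCF11. PCF11 (ENSG00000165494, 11:83156988-83187451, plus strand, hg38) encodes the CF IIm subunit that binds the CTD and promotes termination. It was at 37.1, 9.41 and 21.3 CPM in SCR DMSO replicates 1, 2 and 3, and at 74.6, 41.1 and 62.2 CPM in SCR AAI. In siB DMSO it was at 23.9, 14.1 and 16.0 CPM, and in siB AAI at 76.7, 58.5 and 50.8 CPM. Every AAI library was above every DMSO library, with SCR DMSO replicate 2 the lowest of all. The log2 change was 1.74 ± 0.21 (SE, n = 3 against 3) in siB cells, at a limma adjusted p of 0.000154, and 1.50 ± 0.47 in SCR cells, at 0.0798. With the replicate term it passed in SCR cells as well, at an adjusted p of 0.00602. Its CF IIm partner, the RNA kinase gene CLP1, had changes of 0.28 in siB and 0.51 in SCR cells that did not pass.

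CSTF3 (ENSG00000176102, 11:33077188-33162371, minus strand) encodes CstF-77, the scaffold of the CstF complex. It was at 40.5, 14.4 and 26.3 CPM in SCR DMSO and at 75.1, 48.2 and 69.3 CPM in SCR AAI. It was at 30.4, 22.0 and 27.6 CPM in siB DMSO and at 71.7, 70.0 and 76.2 CPM in siB AAI. The groups did not overlap in either background, and the siB AAI libraries lay close together. The log2 change was 1.43 ± 0.14 in siB cells (limma adjusted p = 4.22e-05) and 1.31 ± 0.38 in SCR cells (adjusted p = 0.0642, and 0.00726 with the replicate term). CSTF3 overlaps the expressed gene TCP11L1 on the opposite strand. The rest of CstF did not move with its scaffold. CSTF2T, an RNA-binding subunit made from an intronless gene, fell by 0.56 in siB cells (adjusted p = 0.0053), and CSTF1 fell by 0.41 (adjusted p = 0.0412). CSTF2, the X-linked RNA-binding subunit, had a change of −0.05 in siB cells (adjusted p = 0.776).

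RBBP6 (ENSG00000122257, 16:24537693-24572863, plus strand), a ubiquitin ligase that activates cleavage, was at 55.0, 14.1 and 45.4 CPM in SCR DMSO and at 83.8, 41.9 and 62.6 CPM in SCR AAI. It was at 50.1, 20.1 and 25.5 CPM in siB DMSO and at 95.2, 71.3 and 62.0 CPM in siB AAI. The siB groups did not overlap, whereas SCR AAI replicate 2 fell below SCR DMSO replicates 1 and 3. The log2 change was 1.31 ± 0.29 in siB cells (limma adjusted p = 0.0046) and 0.85 ± 0.50 in SCR cells (adjusted p = 0.325, and 0.0492 with the replicate term). Of the other genes of tail synthesis, the poly(A) polymerase genes PAPOLG and PAPOLA rose by 0.60 and 0.48 in siB cells (adjusted p = 0.0089 and 0.0253). PABPN1 had a change of −0.26 that did not pass (adjusted p = 0.095), and 79.4% of the 50-base words of its transcript also occur in the readthrough gene BCL2L2-PABPN1, so its level is uncertain. Gene-level values do not separate the short, intronically polyadenylated isoforms that PCF11, CSTF3 and RBBP6 are known to have from the full-length ones.

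INTS2 (ENSG00000108506, 17:61865367-61928016, minus strand), a subunit of the Integrator core, was at 26.3, 4.95 and 17.7 CPM in SCR DMSO and at 35.9, 21.2 and 30.4 CPM in SCR AAI. It was at 19.8, 15.3 and 12.9 CPM in siB DMSO and at 54.3, 50.9 and 44.05 CPM in siB AAI. The 3 siB AAI libraries were higher than every other library, and the SCR groups overlapped. The log2 change was 1.59 ± 0.17 in siB cells (limma adjusted p = 7.17e-05) and 1.03 ± 0.54 in SCR cells (adjusted p = 0.27).

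**Figure D2:**
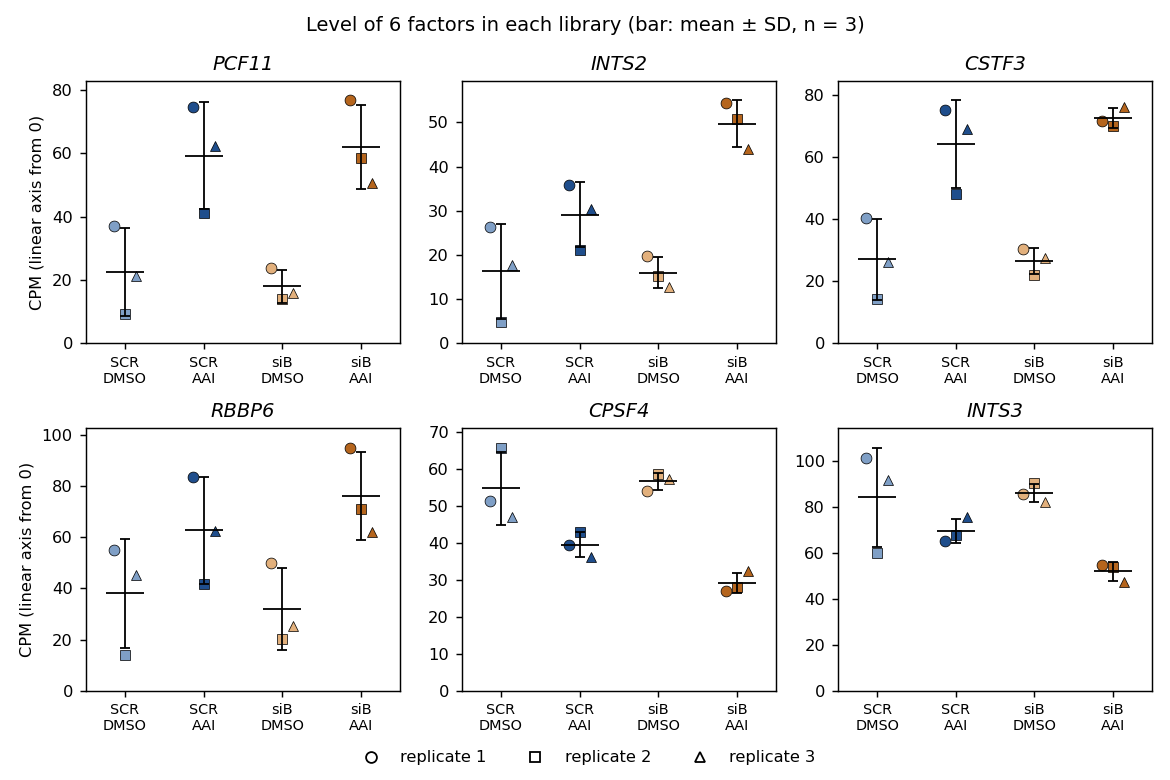
Level in CPM (y axis, linear from 0) of 6 factors in each of the 12 libraries by group (x axis). Symbols mark replicates 1 to 3, and bars the mean and SD of 3 libraries. PCF11, INTS2, CSTF3 and RBBP6 sit higher in siB AAI than in siB DMSO with no overlap, and CPSF4 and INTS3 lower with no overlap.

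The other Integrator genes went different ways in siB cells. Of 12 measured, 2 rose, 4 fell and 6 did not pass, where 30.4% of all genes tested rose and 21.8% fell. Besides INTS2, the rise was in INTS6, which binds the phosphatase PP2A, by 0.60 ± 0.17 (limma adjusted p = 0.0156), from 25.4 to 36.8 CPM in siB DMSO to 40.8 to 51.6 CPM in siB AAI. INTS6 shares 6.92% of its 50-base words with INTS6P1 and overlaps the expressed gene SERPINE3 on the opposite strand. The 4 that fell were INTS3, INTS9, INTS4 and INTS1, the largest scaffold subunit, by 0.48 (adjusted p = 0.0060). Of the cleavage module, INTS9 and INTS4 thus fell while the nuclease subunit INTS11, listed under its older symbol CPSF3L, had a change of 0.22 ± 0.10 that did not pass (adjusted p = 0.10).

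INTS3 (ENSG00000143624, 1:153728050-153774808, plus strand), shared with a single-stranded DNA-binding complex of DNA repair, was at 85.5, 90.1 and 82.2 CPM in siB DMSO and at 54.5, 53.7 and 47.3 CPM in siB AAI. It was at 101, 59.7 and 91.6 CPM in SCR DMSO and at 65.0, 67.9 and 75.4 CPM in SCR AAI. The siB groups were wide apart, whereas SCR DMSO replicate 2 lay under all SCR AAI libraries. INTS3 fell by 0.72 ± 0.11 on the log2 scale in siB cells (limma adjusted p = 0.000572) and had a change of −0.24 in SCR cells (adjusted p = 0.577). It shares 7.80% of its 50-base words with SLC27A3, which overlaps it. INTS9, the partner of the nuclease, was at 18.9, 19.7 and 22.4 CPM in siB DMSO and at 11.5, 12.2 and 14.1 CPM in siB AAI. It was at 16.3, 20.5 and 18.9 CPM in SCR DMSO and at 12.5, 13.3 and 14.6 CPM in SCR AAI, so that neither background overlapped. It fell by 0.65 ± 0.15 in siB cells (adjusted p = 0.00523), and the change of −0.43 ± 0.24 in SCR cells did not pass (adjusted p = 0.294). INTS4, their scaffold, was at 20.2, 18.4 and 20.7 CPM in siB DMSO and at 12.4, 13.1 and 13.7 CPM in siB AAI, a fall with no overlap. It was at 20.9, 14.1 and 22.7 CPM in SCR DMSO and at 18.4, 11.8 and 14.6 CPM in SCR AAI, which overlapped. INTS4 fell by 0.57 ± 0.14 in siB cells (adjusted p = 0.00697), but 32.3% of its 50-base words recur in other genes, chiefly the pseudogenes INTS4P2 and INTS4P1, so its level is uncertain.

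Of the 7 CPSF genes, 2 rose and 2 fell in siB cells, where 30.4% and 21.8% of all genes tested did. CPSF4 (ENSG00000160917, 7:99438922-99457373, plus strand), a zinc-finger protein that helps to read the poly(A) signal, was at 53.9, 58.4 and 57.3 CPM in siB DMSO and at 27.0, 28.0 and 32.2 CPM in siB AAI. It was at 51.3, 65.7 and 46.9 CPM in SCR DMSO and at 39.3, 42.8 and 36.2 CPM in SCR AAI. Each AAI library was below each DMSO library, and the siB AAI libraries were the lowest. CPSF4 fell by 0.94 ± 0.12 in siB cells (limma adjusted p = 0.000206), the largest fall of the 39, and had a change of −0.45 ± 0.23 in SCR cells that did not pass (adjusted p = 0.248). It overlaps expressed genes on the opposite strand, among them PTCD1, and whether counting used strand was not given in the sources used here. CPSF3, the endonuclease, fell by 0.38 in siB cells (adjusted p = 0.0386). WDR33, which reads the poly(A) signal with CPSF4, rose by 0.45 in siB cells (adjusted p = 0.0073) and by 0.68 in SCR cells with the replicate term (adjusted p = 0.0348, and 0.0738 without it). CPSF2, the inactive partner of the nuclease, rose by 0.62 in siB cells (adjusted p = 0.0114). CPSF1, FIP1L1 and SYMPK did not pass in siB cells, with changes of −0.22, 0.05 and 0.22. In CF Im, which favours distal poly(A) sites, CPSF6 rose by 0.61 in siB cells (adjusted p = 0.0029) while NUDT21 and CPSF7 had changes of 0.37 and −0.20 that did not pass. A share of 61.6% of the 50-base words of NUDT21 recurs in another annotated gene, so its level is uncertain.

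Among the 7 genes of termination and CTD binding, 4 rose and 1 fell in siB cells, where 30.4% and 21.8% of all genes tested did. RPRD1A (ENSG00000141425, 18:35984387-36067576, minus strand), a CTD-binding protein, was at 40.9, 29.0 and 27.3 CPM in siB DMSO and at 66.6, 48.1 and 48.1 CPM in siB AAI. It was at 40.9, 15.7 and 22.4 CPM in SCR DMSO and at 51.7, 30.0 and 43.2 CPM in SCR AAI. The siB groups did not overlap and the SCR groups did. It rose by 0.73 ± 0.19 in siB cells (limma adjusted p = 0.00881), and its paralog RPRD1B rose by 0.60 (adjusted p = 0.0011). In SCR cells RPRD1B rose by 0.65 with the replicate term (adjusted p = 0.0492, and 0.124 without it). RPRD1B overlaps the expressed gene TGM2 on the opposite strand. RPRD2 and SCAF4 rose by 0.32 and 0.41 in siB cells (adjusted p = 0.0323 and 0.0147), but neither passed with median-ratio scaling. XRN2 and SSU72, the exonuclease and the CTD phosphatase, had changes of 0.11 and 0.13 in siB cells that did not pass (adjusted p = 0.372 and 0.385).

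The CTD-binding paralogs SCAF4 and SCAF8, which are known to hold back early polyadenylation, had changes of opposite sign in siB cells. SCAF8 (ENSG00000213079, 6:154733378-154834244, plus strand) was at 78.7, 53.9 and 53.2 CPM in siB DMSO and at 32.6, 42.6 and 38.8 CPM in siB AAI. It was at 80.6, 36.6 and 76.4 CPM in SCR DMSO and at 45.2, 55.5 and 74.3 CPM in SCR AAI, an overlap. SCAF8 in siB AAI lay under every siB DMSO library. It fell by 0.68 ± 0.17 in siB cells (limma adjusted p = 0.00921), and 13.1% of its transcript words recur in TIAM2, which overlaps it. The ratio of SCAF4 to SCAF8 does not depend on the scaling of a library. It was 0.730 to 1.05 in siB DMSO and 1.81 to 2.06 in siB AAI, a log2 difference of 1.10. Over 4 paralog pairs in both backgrounds, 8 comparisons in all, this pair in siB cells and CSTF2 against CSTF2T in siB cells (0.801 to 0.964 in DMSO, 1.19 to 1.35 in AAI) reached the smallest p of the exact 2-sided permutation test with 3 against 3 libraries, 0.1 (0.4 after Benjamini-Hochberg adjustment). In SCR cells both ratios overlapped between DMSO and AAI. The ratios of PAPOLA to PAPOLG and of RPRD1A to RPRD1B overlapped in both backgrounds.

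**Figure D3:**
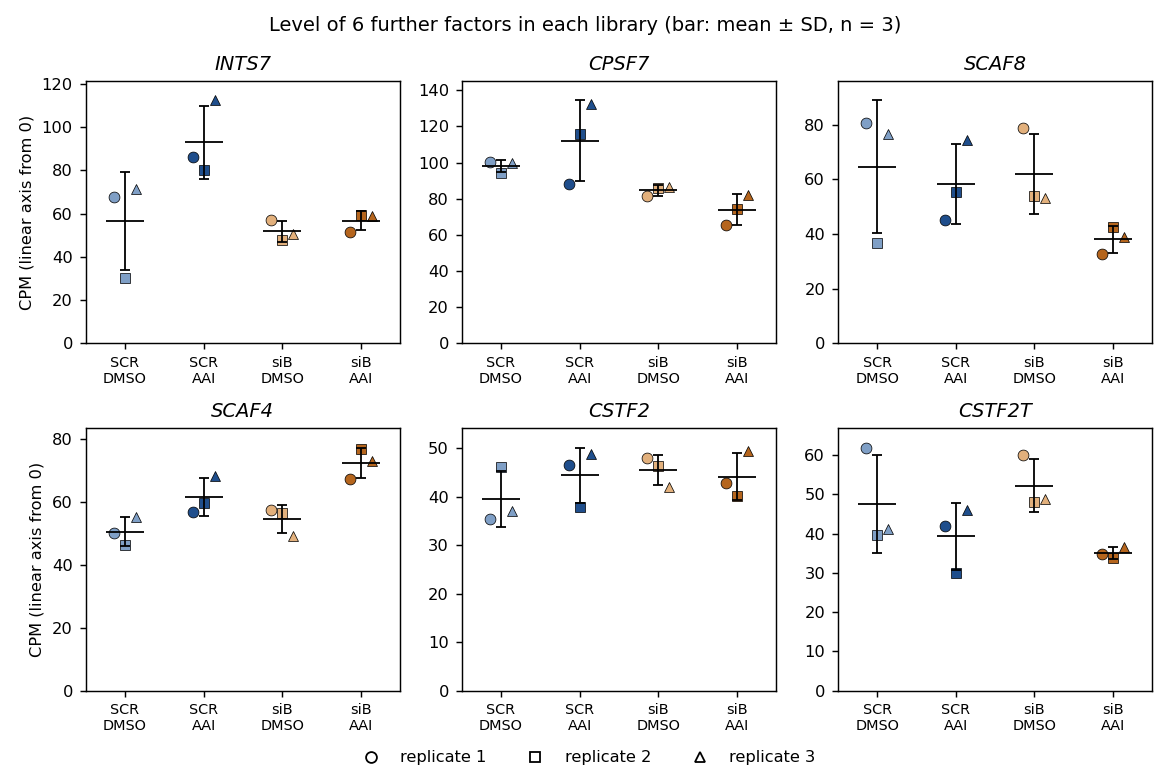
Level in CPM (y axis, linear from 0) of 6 further factors in each of the 12 libraries by group (x axis), with replicates as symbols and the mean and SD of 3 libraries as bars. In siB AAI, SCAF8 and CSTF2T lie below siB DMSO and SCAF4 above, INTS7 and CPSF7 lie below their SCR AAI levels, and CSTF2 is similar in level across groups.

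The comparison of siB AAI with SCR AAI asked how the knockdown alters these genes in injured cells. INTS2 was higher and INTS7 lower, 1 gene each way, where 5.49% of all genes tested were higher and 3.79% lower. INTS2 was at 35.9, 21.2 and 30.4 CPM in SCR AAI and 54.3, 50.9 and 44.05 CPM in siB AAI, a log2 change of 0.78 ± 0.20 (limma adjusted p = 0.0332). INTS7 (ENSG00000143493, 1:211940399-212035557, minus strand), another core subunit, was at 86.1, 80.3 and 112 CPM in SCR AAI and 51.6, 59.5 and 59.1 CPM in siB AAI. It was at 67.8, 30.4 and 71.2 CPM in SCR DMSO and 56.9, 47.7 and 50.7 CPM in siB DMSO. Neither gene's AAI groups overlapped, and INTS7 stood apart in SCR AAI, where its libraries were the highest of all 12. INTS7 fell by 0.69 ± 0.17 (adjusted p = 0.0269), and it overlaps the expressed gene DTL on the opposite strand. Neither gene passed with all 4 groups in the model, where 0 genes were higher (4.85% of all genes) and CPSF7 alone was lower (2.46%). The INTS2 call was lost on leaving out any SCR AAI library but replicate 1, or any siB AAI library (adjusted p up to 0.354 over the alternatives), and that of INTS7 on leaving out SCR AAI replicate 3 or any siB AAI library (up to 0.165). Levels did not overlap for 2 genes higher and 7 lower, where 15.1% and 15.8% of all genes tested did so.

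In this comparison too the same-numbered libraries deviated together, though replicates 2 and 3 also did so crosswise (correlations of 0.22 and 0.21). With the replicate term 2 genes were higher (15.2% of all genes) and 7 lower (13.8%). RPRD1A joined INTS2, with a log2 change of 0.39 (limma adjusted p = 0.0388). CPSF7, SCAF8, CSTF1, PABPN1, CPSF4 and INTS3 joined INTS7. Their changes were −0.58 for CPSF7 (adjusted p = 0.00076), −0.58 for SCAF8 (0.00115), −0.44 for CSTF1 (0.0205), −0.43 for PABPN1 (0.0148), −0.43 for CPSF4 (0.0249) and −0.41 for INTS3 (0.0248). With the replicate term the SE of the named genes were nearly alike, from 0.146 for PABPN1 to 0.156 for CPSF4. Limma there took the spread almost wholly from all genes together, not from each gene, and its lowest adjusted p over all genes was 2.09e-40. Over 18 alternatives the highest adjusted p ran from 0.215 for CPSF7 to 0.610 for RPRD1A. CPSF7, a large subunit of CF Im, was at 88.2, 116 and 132 CPM in SCR AAI and 65.3, 74.2 and 82.2 CPM in siB AAI, with no overlap. PCF11, CSTF3 and RBBP6 had changes of 0.08, 0.20 and 0.31, none of which passed with or without the replicate term. The median over the 39 was −0.01 beside 0.00 over all genes.

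**Figure D4:**
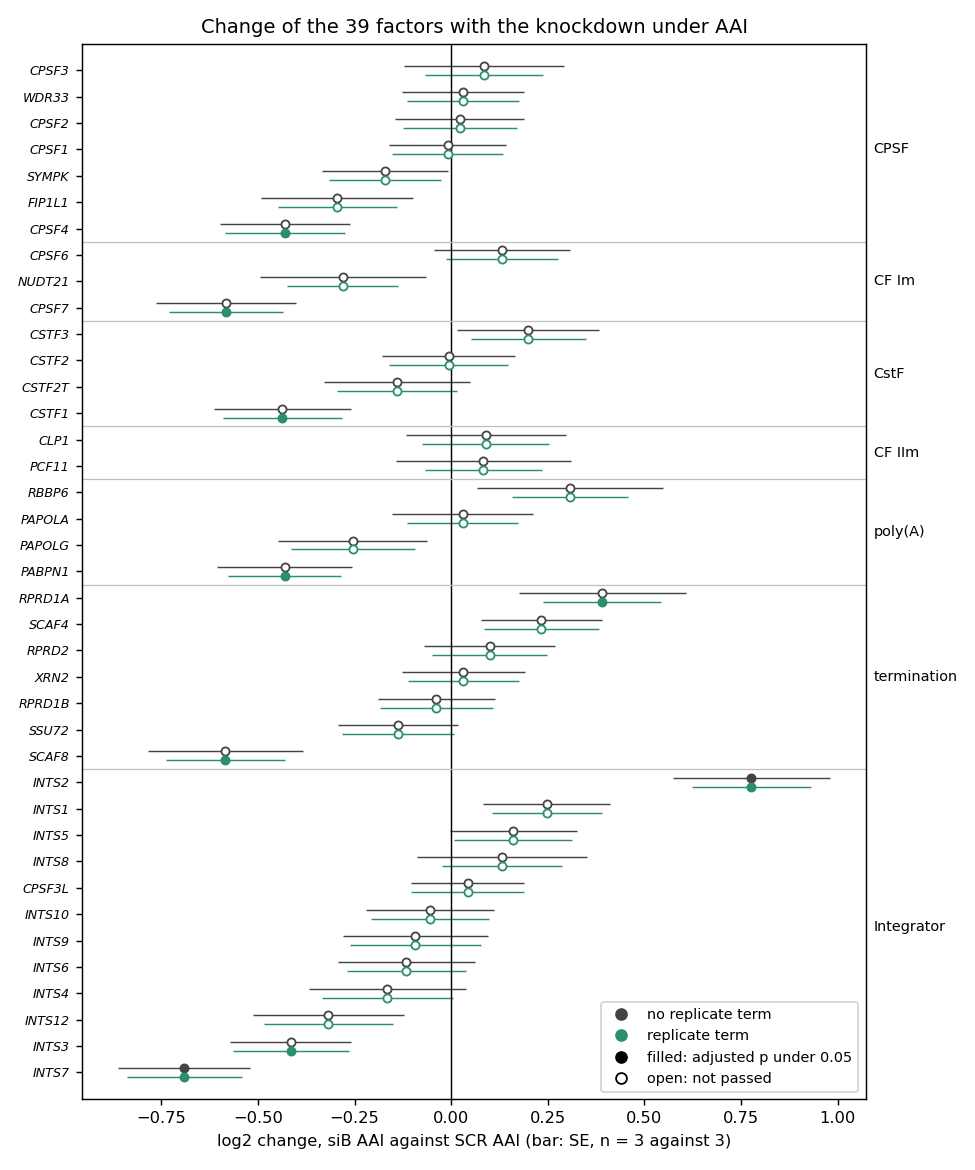
Change of each of the 39 genes in siB AAI against SCR AAI on the log2 scale (x axis), by complex on the y axis, without (grey) and with (green) the replicate number in the model. Points are limma estimates, bars are standard errors, and filled points passed an adjusted p under 0.05. INTS2 and INTS7 are filled in both fits, and 7 more genes are filled in green.

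The knockdown in DMSO asked for its effect without injury. By limma 0 of the 39 genes passed, 0 had an unadjusted p under 0.05, and 0% of all genes tested passed. POLR2A, the siRNA target, thus did not pass either, although its mean was lower in siB DMSO, as given above. The comparison therefore does not show that the knockdown left the 39 genes unchanged. Changes ran from −0.31 for PABPN1 to 0.47 for INTS10, and the median of the 39 was 0.07 beside 0.06 over all genes, or −0.16 beside −0.04 without SCR DMSO replicate 2. The voom alternative also called 0 of the 39. Levels did not overlap for 1 gene that was higher and 1 that was lower, where 8.28% and 3.64% of all genes were.

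Whether AAI acted differently in the 2 backgrounds was tested as an interaction over all 4 groups. By limma 0 of the 39 passed, where 1.61% of all genes tested did, and 1 had an unadjusted p under 0.05. The lowest adjusted p values were those of CSTF1 (−0.57 ± 0.24, 0.34), CPSF4 (−0.49 ± 0.23, 0.378), INTS10 (−0.53 ± 0.27, 0.453), INTS12 (−0.68 ± 0.37, 0.483) and INTS3 (−0.48 ± 0.26, 0.483). In all 5 the change with AAI was the lower one in siB cells. Without SCR DMSO replicate 2, INTS2 passed (1.21 ± 0.33, adjusted p = 0.0491), where 6.59% of all genes did. A gene that passed in siB and not in SCR cells is therefore not shown to differ between them. The AAI comparisons of the 2 backgrounds share no library. Of the 39, 25 had a positive change in both, 9 a negative change in both and 5 a positive change in SCR and a negative one in siB cells, so 87.2% had the same sign, as did 79.3% of 14104 genes tested in both. Across the 39 genes, which are not independent replicates, the changes in the backgrounds correlated at Pearson's r of 0.91 and Spearman's rho of 0.89, beside 0.85 and 0.80 over all genes.

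Further genes of 3′ end formation and termination were measured from a separate list of 44. In SCR cells 1 rose and 0 fell with AAI (8.98% and 3.36% of all genes), or 4 and 1 with the replicate term (14.7% and 6.4%). Without SCR DMSO replicate 2, ZNF473 and C7orf26 rose and NABP1 fell (13.5% and 8.7%). In siB cells 11 rose and 5 fell (30.4% and 21.8%), or 5 and 2 with all 4 groups in the model (20.7% and 13.7%). ZNF473, which serves histone mRNA 3′ ends, was at 18.5, 18.2 and 22.7 CPM in SCR DMSO and 62.5, 48.8 and 62.7 CPM in SCR AAI. It rose by 1.50 ± 0.23 in SCR cells (limma adjusted p = 0.00471) and by 1.34 ± 0.12 in siB cells (adjusted p = 2.65e-05). Of 7 histone 3′ end genes 4 rose in siB cells, where 30.4% of all genes tested did. Among the 4 was CASP8AP2, by 1.12 (adjusted p = 0.0222). RPAP2, a phosphatase and import factor of RNA polymerase II, was at 39.7, 21.7 and 22.9 CPM in siB DMSO and 115, 91.4 and 74.5 CPM in siB AAI. It rose by 1.73 ± 0.23 in siB cells (adjusted p = 0.000279) and was higher by 0.66 ± 0.18 in siB AAI than in SCR AAI (adjusted p = 0.0373). That call was lost in 8 of 18 alternatives, among them leaving out SCR AAI replicate 2 or 3 or siB AAI replicate 1 or 2 (adjusted p 4.15e-05 to 0.437 over all 18).

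SNRPA, a protein of the U1 snRNP, which restrains early polyadenylation, showed the largest fall of the 44 in siB cells, of 0.72 (limma adjusted p = 0.000758), followed by NABP1, a partner of INTS3 (−0.68, adjusted p = 0.0165), and PPP1CA, a phosphatase subunit that partners the termination factor PNUTS (−0.67, adjusted p = 0.000712). SNRPA was at 60.6, 74.3 and 65.7 CPM in SCR AAI and 34.7, 38.8 and 41.2 CPM in siB AAI, a fall of 0.79 ± 0.16 with the knockdown (adjusted p = 0.0122), lost without SCR AAI replicate 3 (0.0595). Its level was 83.5, 144 and 112 CPM in SCR DMSO and 60.9, 63.6 and 65.7 CPM in siB DMSO, with no overlap. The change with the knockdown in DMSO was also −0.79 (± 0.22, adjusted p = 0.9998), and that with AAI in SCR cells was −0.72 ± 0.25 (adjusted p = 0.109), neither of which passed. In siB against SCR cells under AAI, 1 of the 44 was thus higher and 1 lower (5.49% and 3.79% of all genes), and with the replicate term 2 and 10 (15.2% and 13.8%). In DMSO 0 passed by limma, with 1, SNRPA, at an unadjusted p under 0.05, and voom called 0.

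In siB cells the transcripts that rose and fell differed in median base composition, among the 39 and likewise over all genes tested. The 14 genes that rose in siB cells had a median transcript GC content of 40.6% and a median gene span of 64.2 kb, and the 9 that fell 47.2% and 46.8 kb. The 16 that did not pass had 48.3% and 30.3 kb. Over all genes tested the medians were 47.6% and 31.7 kb for those that rose and 54.2% and 26.5 kb for those that fell. For those that did not pass they were 47.2% and 34.6 kb. Across the 39 genes, which share libraries and depth, the change correlated with GC content at Pearson's r of −0.45 and Spearman's rho of −0.48 in SCR cells and −0.43 and −0.51 in siB cells. Over all genes tested r was −0.004 in SCR and −0.06 in siB cells, and rho was −0.10 and −0.16. The AT-rich minus GC-rich index overlapped between DMSO and AAI in both backgrounds, at −1.12 to 0.64 in SCR DMSO, −0.39 to 0.17 in SCR AAI, −0.39 to 0.22 in siB DMSO and −0.06 to 0.05 in siB AAI. With GC content and transcript length removed from each library, a step chosen after seeing the data, 12 rose and 13 fell in siB cells, PCF11, INTS2, CSTF3, RBBP6, CPSF4 and INTS3 among them, where 25.3% and 35% of all genes did. In SCR cells 8 rose and 3 fell in that fit, where 12.5% and 14.3% of all genes did.

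**Figure D5:**
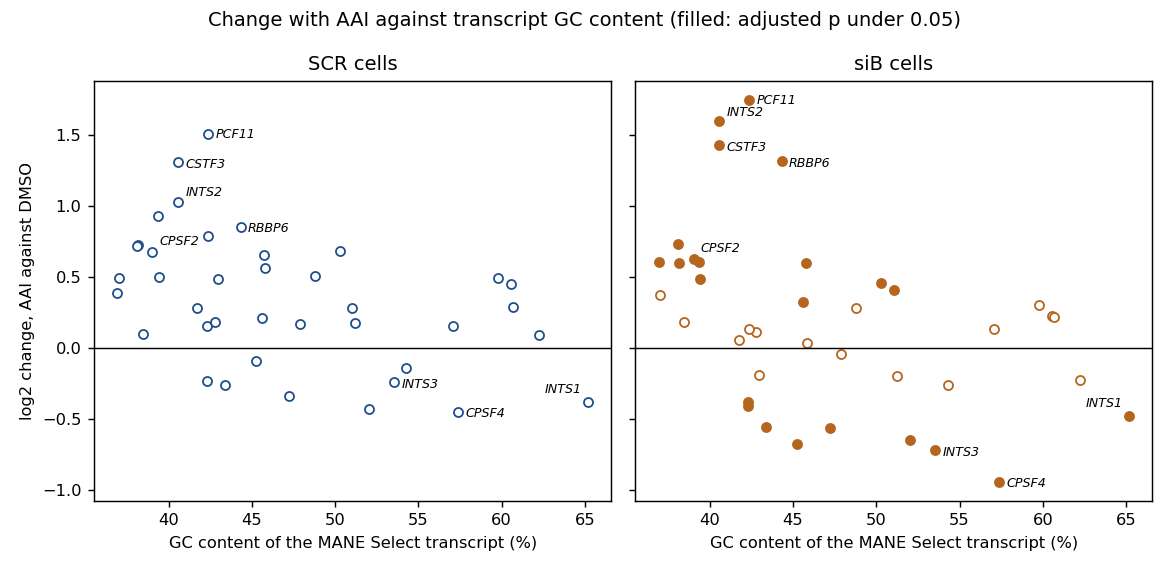
Log2 change with AAI (y axis) against the GC content of the MANE Select transcript in percent (x axis) for the 39 genes, in SCR cells (left) and siB cells (right). Filled points passed an adjusted p under 0.05. The genes past 2-fold in siB cells lie between 40.6% and 44.3% GC, while CPSF4, with the largest fall, is at 57.4%.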

How the data were processed

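The authors sequenced polyadenylated RNA, aligned paired-end reads to hg38, counted them per gene and deposited log10 values, log10 of CPM plus 1. The aligner and strand setting were not given in the sources used here. CPM and reads were recovered, and 100% of values were whole reads within 0.05 read. Limits set by 0 reads cover counting error only.

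Groups came from sample titles, since a treatment label read DMSO throughout. Limma 3.58.1 in R 4.3.3 with a mean-variance trend was run on log2(CPM + 1) for each pair of groups, on genes with CPM of at least 1 in at least 3 fitted libraries. Folds are on that scale, which understates low genes. Adjusted p-values are Benjamini-Hochberg over all genes tested. With the replicate term few degrees of freedom are left per gene, so limma leans more on the spread over all genes. Voom on recovered reads was an alternative, and called 1580 genes for AAI in SCR cells, 7744 in siB cells, 1294 for the knockdown under AAI and 0 in DMSO. Code was tested on simulated data with a single fixed spread and no replicate or GC structure. Such data do not show how often calls are false at the spread of these libraries.

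Same-numbered libraries deviated together (correlation over genes) for AAI in SCR cells (0.42, 0.47 and 0.34) and the knockdown under AAI (0.61, 0.32 and 0.29), so those comparisons are given with the replicate term too. The pairing comes from these correlations, not from the labels. In the knockdown under AAI, siB AAI replicate 2 with SCR AAI replicate 3 gave 0.22, and 3 with 2 gave 0.21. Its other pairs of unlike number were negative, so the pairing of replicates 2 and 3 is uncertain there. For AAI in SCR cells, SCR AAI replicate 3 with SCR DMSO replicate 1 gave 0.16, and the other pairs of unlike number were negative. No library was a copy of another of its group (chi-square per degree of freedom at least 4.38), and pairs across groups were not compared. The value of 4.38 was that of siB DMSO replicates 2 and 3, and all other pairs were at 28.5 or more. In siB cells without replicate 2 or 3 of siB DMSO, 11 or 10 of the 39 rose (3604 or 3518 of 14928 genes). Then 8 or 7 fell (2590 or 2515).

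The 39 genes and all lists were chosen with earlier results of these data known. Named in full are in each direction the 5 most changed genes past an adjusted p of 0.05, any past 2-fold, the 5 lowest in the interaction, and up to 3 each way of the 44 further genes. CPSF7 was singled out, and paralog pairs and promoters were chosen, after values were seen. Gene models are GENCODE release 44 (hg38), matched by symbol, and promoters RefSeq. The names of 28 genes had become dates, and 2 names were repeated.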

Additional observations from a re-analysis of the deposited data

How the results depend on the processing

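Of the 39 genes, none that passed as reported changed sign under any alternative run, and no change of sign passed (median-ratio scaling, a pseudocount of 0.1, a filter at a mean CPM of 5 or none, CPM without the gene AC010970.2, all 4 groups in 1 fit, the replicate term, voom, no trend, each library left out, and, chosen after seeing the data, removal of GC content and transcript length and the replicate term with that or with median-ratio scaling). Genes of the 39 that did not pass changed sign under at least 1 alternative in every comparison, 12 for AAI in SCR cells (7 with median-ratio scaling), 6 in siB cells (3), 15 for the knockdown under AAI (0), 24 in DMSO (8) and 18 in the interaction (6). Of 547 values recomputed for genes named in the comparisons, called or not, 480 kept their side of the threshold, 52 gained the call and 15 lost it. Many of the 480 were genes not called as reported that stayed uncalled. The genes for AAI in SCR cells were picked for passing with the replicate block. So were those for the knockdown under AAI other than INTS2 and INTS7, and their gain with the block was fixed in advance. Counts of members are followed in brackets by the share or count of all genes tested. For AAI in SCR cells, members higher numbered 0 as reported (8.98%), 1 with median-ratio scaling (1067 of 14231) and 5 with all 4 groups (2776 of 15325). They numbered 5 with the replicate block (14.7%), 8 with GC and length removed (12.5%) and 9 with that and the block (2377 of 13769). With the block and median-ratio scaling they numbered 2 (1580 of 14190). Members lower numbered 0 (3.36% as reported), but 3 with GC and length removed (14.3%) and 4 with the block as well (2728 of 13769). Leaving out each library gave 0 to 3 higher (769 to 1918 of 14228) and 0 lower (118 to 1238). For AAI in siB cells, all 4 groups in 1 fit gave 8 higher (20.7%) and 3 lower (13.7%). Leaving out each library gave 10 to 15 higher (3518 to 5193 of 14928) and 7 to 9 lower (2515 to 3390). For the knockdown under AAI, members higher numbered 0 with no filter (875 of 25906) or all 4 groups (4.85%), and 2 with the block (15.2%). They numbered 3 with the block and GC and length removed (2616 of 14381), and 2 with the block and median-ratio scaling (2355 of 14817). Members lower there numbered 7 with the block (13.8%), 4 with GC and length removed (1262 of 14381) and 11 with both (3550 of 14381). They numbered 7 with the block and median-ratio scaling (2148 of 14817). Leaving out each library gave 0 to 1 higher (151 to 1306 of 14946) and 0 to 3 lower (62 to 798). In the interaction 1 gene, INTS7, passed with the block and GC and length removed (929 of 14715). Leaving out each library gave 0 to 1 (81 to 1010 of 15325). The cause was not tested. The medians moved by less than the SD between libraries in every alternative, at 0.18 to 0.41 (AAI in SCR cells), 0.16 to 0.20 (AAI in siB cells), −0.12 to 0.03 (knockdown under AAI) and −0.16 to 0.21 (knockdown in DMSO) over the libraries left out. Same-numbered libraries did not all correlate above 0.1 for AAI in siB cells (0.21, 0.026 and 0.19) or the knockdown in DMSO (0.73, 0.59 and −0.19). With the replicate block AAI in siB cells gave 15 higher (5072 of 14928) and 9 lower (3528). The knockdown in DMSO gave 0 and 0 with it, as over all genes tested. In the comparisons where all 3 did, values with the block are given beside the results. Depth did not limit these genes, all far above the level that 0 reads allow.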
